A study of Mus musculus with 768 samples.

Results

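Ramp1, Wdfy1, Ugt1a7c, Stk25, Capn10, Stk11ip and Klhl30 are 7 genes of chromosome 1 that lie within 20 Mb of Pdcd1, the gene of PD-1, and whose transcripts differed in level between a plate of WT and a plate of PD-1-/- NK cells. They are 7 of the 24490 gene entries of the deposited tables, and each was found under its own symbol. They were picked on the difference in mean between the plates, so that this difference is given here as a description and without a test. All 7 passed the minimum used below, an average of at least 1 RPKM on either plate, as did 12030 entries in all.

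The cells were NK cells that had infiltrated tumors of MTAP1A, a fibrosarcoma line from a Tap1-deficient mouse, in male C57BL/6 mice of 8 to 12 weeks. Viable cells, NK1.1+ and negative for CD3 and GR1 among others, were sorted one by one into 768 wells, a plate per genotype, and SMART-SEQ2 libraries of full-length cDNA were made. The tumors of 3 mice were pooled for each plate. PD-1-/- mice lack exons 3 and 4 of Pdcd1 in all their cells and still make a transcript of the rest. Each genotype was 1 pool on 1 plate, so that an effect of genotype and one of plate cannot be told apart, and no value has a replicate error.

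Ramp1 encodes a small membrane protein that pairs with the receptor Calcrl, and the pair binds the neuropeptide CGRP, released by sensory nerves. Wdfy1 is an endosomal protein with a lipid-binding FYVE domain that has been linked to the TRIF arm of Toll-like receptor signaling, and Ugt1a7c belongs to the enzymes that couple glucuronic acid to lipophilic compounds and drugs. Stk25 is a kinase of the Golgi and of the STRIPAK complex, Capn10 a calpain, Stk11ip a binding partner of the kinase LKB1, and Klhl30 a member of the kelch-like family, many of which bring substrates to cullin 3 ligases. Neighboring genes of a chromosome tend to be inherited together.

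All 7 genes started before Pdcd1, which RefSeq places on the minus strand at chr1:94038305-94052553 of GRCm38.p6. Stk25 lay nearest, with its start 0.418 Mb away, followed by Capn10 at 1.10 Mb, Klhl30 at 2.69 Mb, Ramp1 at 2.86 Mb, Ugt1a7c at 5.94 Mb, Wdfy1 at 14.3 Mb and Stk11ip at 18.5 Mb. On the plus strand were Stk11ip (chr1:75521529-75537335), Ugt1a7c (chr1:88095001-88220002), Ramp1 (chr1:91179822-91225196), Klhl30 (chr1:91351073-91362404) and Capn10 (chr1:92934408-92947948). Wdfy1 (chr1:79702262-79776143) and Stk25 (chr1:93620751-93654216) were on the minus strand. The order of the genes along the chromosome was not the order of their differences.

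Promoter sequences of RefSeq were at hand for 5 of the 7 genes, and 3 are shown: Ramp1 and Ugt1a7c, which had the largest ratio of means among the 7 in each direction, and Stk25, the nearest to Pdcd1. Each is the 250 bases before a start site in GRCm38.p6, on the gene's own strand. Ramp1 lay on the plus strand at chr1:91179572-91179821, Ugt1a7c on the plus strand at chr1:88094751-88095000, and Stk25 on the minus strand at chr1:93635728-93635977, before a start inside the gene's full span. Capitals mark a match to GGGCGG, which on this strand reads as its reverse complement.
Ramp1: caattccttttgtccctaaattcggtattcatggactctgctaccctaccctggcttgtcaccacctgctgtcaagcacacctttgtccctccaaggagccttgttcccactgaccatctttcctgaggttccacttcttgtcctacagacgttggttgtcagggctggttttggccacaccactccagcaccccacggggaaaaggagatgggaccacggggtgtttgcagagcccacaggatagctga
Ugt1a7c: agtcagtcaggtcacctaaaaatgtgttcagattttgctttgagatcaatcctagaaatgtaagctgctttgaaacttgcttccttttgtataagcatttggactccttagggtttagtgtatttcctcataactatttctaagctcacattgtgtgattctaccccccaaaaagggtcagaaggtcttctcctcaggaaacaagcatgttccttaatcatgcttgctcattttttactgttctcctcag
Stk25: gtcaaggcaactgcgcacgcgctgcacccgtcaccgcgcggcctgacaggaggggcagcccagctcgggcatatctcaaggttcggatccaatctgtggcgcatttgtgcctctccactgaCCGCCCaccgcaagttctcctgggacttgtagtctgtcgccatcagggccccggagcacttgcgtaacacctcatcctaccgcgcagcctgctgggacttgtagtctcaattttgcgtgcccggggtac

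The 3 windows differed in composition. That of Ugt1a7c held 0 CG pairs and 38.8% G or C, that of Ramp1 4 CG pairs and 54%, and that of Stk25 19 CG pairs and 62.4%, where the median over 32851 promoters of this length was 6 pairs and 52.4%. Of 4 motifs searched on both strands, GGGCGG occurred in 32.7% of all promoters, CCGGAAG in 6.91%, TGACGTCA in 1.55% and TCACACCT in 1.12%. Ramp1 and Ugt1a7c had no match, Stk25 had 1 GGGCGG, Capn10 1 CCGGAAG, and Stk11ip 1 of each. The 5 promoters thus had no motif of these in common.

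The plates were close in depth. After wells with fewer than 1000 or more than 3500 detected genes were left out, 726 cells remained, 360 of them WT, with a median of 2265 genes in WT and 2263 in PD-1-/- cells. RPKM divides the reads of a gene by its length in kilobases and by the depth of the library, and whole reads could be recovered from its equal steps for 95.96% of 1767825 values. Recovered reads had a median of 298701 per WT cell, from 1385 to 480673, and of 317584 per PD-1-/- cell, from 1910 to 527303. A gene was called present at any RPKM above 0, and shares carry exact binomial (Clopper-Pearson) 95% intervals, which cover counting error only. Each of 8 NK-like markers was in 55.2% or more of the cells of either plate, as the label says. Of 10 T-like markers, 8 were in a larger share of PD-1-/- cells, the most frequent reaching 14.4% in WT and 16.9% in PD-1-/-, and their summed mean was 247.9 RPKM beside 399 RPKM. Other cell types were rarer: the summed mean was 40.1 RPKM in WT and 15.9 in PD-1-/- for 5 myeloid-like markers, 10.6 and 1.24 for 3 neutrophil-like markers, 1.89 and 4.31 for 3 B-like markers, and 10.9 and 5.41 for 4 fibrosarcoma-like markers, each marker in at most 6.39% of a plate's cells. For 5 markers of cycling cells it was 13.3 and 34.2 RPKM. The part of these cells in the differences below was not tested, and a split by CD3 reads is given below as a description.

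Pdcd1 itself was present in 9 WT cells (2.50%) and 47 PD-1-/- cells (12.8%), at a mean of 14.4 and 13.9 RPKM. Its median where present was 394.7 RPKM in WT and 89.5 in PD-1-/-. The 3 highest cells held 66.1% of the WT sum and 23.8% of the PD-1-/- sum. A value per gene does not separate the deleted exons, so that it did not check the labels of the plates.

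More PD-1-/- than WT cells had Ramp1, Wdfy1 and Capn10, and fewer had Ugt1a7c, Stk25, Stk11ip and Klhl30. Ratios are of mean RPKM over all kept cells, PD-1-/- over WT, on the log2(mean + 1 RPKM) scale. Means at least 2-fold higher in PD-1-/- cells were found for 3 of the 7 genes (Ramp1, Wdfy1 and Capn10), and over all entries for 567 or 4.71%. A mean at least 2-fold lower was found for 1 (Ugt1a7c), and over all entries for 883 or 7.34%. Stk11ip, at a log2 ratio of -0.98, lay just outside this limit and Wdfy1, at 1.40, was the nearest inside it. The genes were chosen on this contrast, and nothing is read from these counts. The median log2 ratio of all 12030 entries was -0.03.

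**Figure D1:**
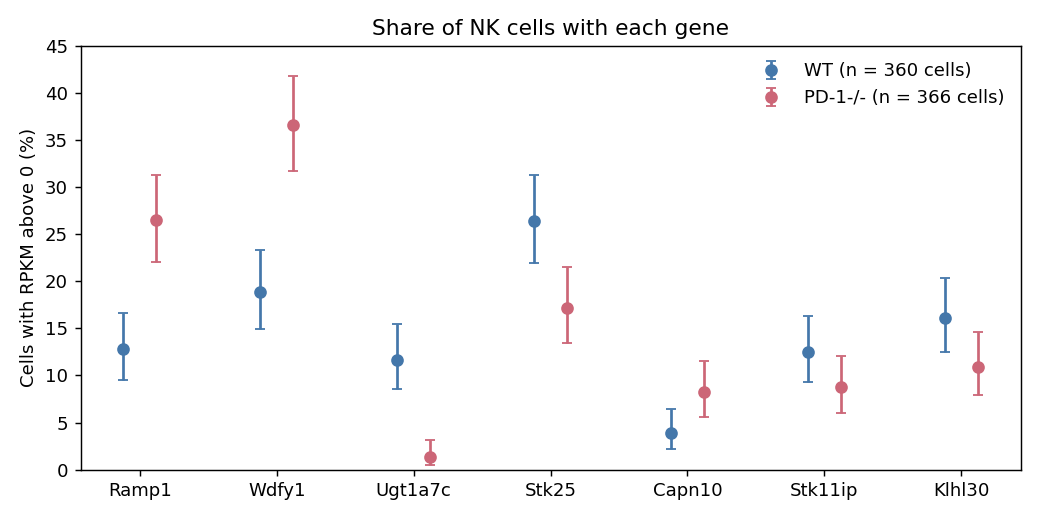
Share of cells with RPKM above 0 (y axis, percent) for each of the 7 genes, in the kept WT (blue) and PD-1-/- (red) cells. Points are shares and bars exact binomial 95% intervals, which do not overlap for Ramp1, Wdfy1, Ugt1a7c and Stk25.

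Ramp1 was present in 46 WT cells (12.8%, interval 9.51 to 16.7%). On the other plate 97 cells had it (26.5%, interval 22.1 to 31.3%). Its mean was 15.6 RPKM in WT and 50.4 in PD-1-/-, at a log2 ratio of 1.63. In cells that had it, Ramp1 ranged from 1.02 to 565 RPKM with a median of 104.8 in WT, and from 0.808 to 1038 with a median of 121.9 in PD-1-/-. The levels of single cells overlapped widely, and the plates differed more in the number of cells with the transcript than in its level there: the share contributed 1.05 and the mean where present 0.64 to the log2 ratio of means taken without a pseudocount. The highest PD-1-/- cells stood above every WT cell.

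Wdfy1 was the most widespread of the 7 in PD-1-/- cells. It was present in 68 WT cells, which is 18.9% (14.98 to 23.3%), and the PD-1-/- plate had it in 36.6% (31.7 to 41.8%). Its mean was 11.8 RPKM in WT and 32.8 in PD-1-/-, at a log2 ratio of 1.40. Where present it ranged from 0.534 to 368.9 RPKM with a median of 60.2 in WT, and from 0.557 to 496 with a median of 74.7 in PD-1-/-. Here too the levels overlapped, and the share contributed 0.95 and the mean where present 0.52. RPKM of Wdfy1 rose in steps of 2 sizes, of which the second was 7.56 times the first. The second step held 10.3% of the WT cells that had the gene and 14.9% of the PD-1-/- cells that had it, and held 5.47% and 9.75% of its summed RPKM, so that most of the signal was on one scale in both plates.

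Capn10 was rare on both plates. WT cells with it numbered 14 (3.89%, 2.14 to 6.44%), at a mean of 3.71 RPKM. PD-1-/- cells with it numbered 30 (8.20%, 5.60 to 11.5%), at a mean of 12.4 RPKM and a log2 ratio of 1.51. Its intervals overlapped, and the median where present was 60.1 RPKM in WT and 116.2 in PD-1-/-, over ranges of 2.43 to 299.5 and 1.02 to 483 RPKM. The 3 highest cells held 54.2% of the WT sum and 28.1% of the PD-1-/- sum, so that few cells set these means.

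Ugt1a7c went the other way and was close to lost on the PD-1-/- plate. WT cells with it numbered 42, which is 11.7% (8.54 to 15.4%), and 5 PD-1-/- cells had it, 1.37% (0.445 to 3.16%). Its mean was 34.1 RPKM in WT and 3.22 in PD-1-/-, at a log2 ratio of -3.06. Where present it was among the higher of the 7 genes, with a median of 246.1 RPKM in WT, from 8.66 to 1674, and of 214.1 in the 5 PD-1-/- cells, from 2.87 to 602. The few PD-1-/- cells with Ugt1a7c thus had it within the WT range, save 1 below it, and the share contributed -3.09 of the log2 ratio without a pseudocount. Of the WT cells, 40 of 42 had at least 10 recovered reads of it, so that the difference was not one of single reads.

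Ugt1a7c is 1 of a cluster of transcripts that differ in their first exon and share the others, and reads from the shared exons can be counted to any of them. The other 7 Ugt1a entries were each in 0 to 3 cells of a plate. Any Ugt1a entry was above 0 for 48 WT cells, 13.3% (9.997 to 17.3%), and for 7 PD-1-/- cells, 1.91% (0.772 to 3.90%). The summed mean of the cluster was 37.9 RPKM in WT and 4.38 in PD-1-/-. Ugt1a7c itself held most of these sums, so that the difference of the cluster was largely its own. The other 7 entries were above 0 in 8 WT and 4 PD-1-/- cells, and none of them held the missing signal. Ugt1a8 had no entry.

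Stk25, the most widespread of the 7 in WT cells, had a share of 26.4% in WT (95 cells, interval 21.9 to 31.3%) and of 17.2% in PD-1-/- (63 cells, interval 13.5 to 21.5%). Its mean was 60.8 RPKM in WT and 31.9 in PD-1-/-, at a log2 ratio of -0.91, and its medians where present were 205.8 and 187.6 RPKM, over ranges of 0.944 to 840 and 1.42 to 599. Its intervals did not overlap, and the share contributed -0.62 and the mean where present -0.32 to the log2 ratio without a pseudocount.

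The share with Stk11ip was 12.5% in WT (45 cells, interval 9.27 to 16.4%) and 8.74% in PD-1-/- (32 cells, interval 6.06 to 12.1%), and its mean was 12.1 RPKM in WT and 5.65 in PD-1-/-. Unlike the others, the level where present contributed as much as the share to its ratio without a pseudocount (-0.59 and -0.52; -0.98 with it), and the median where present was 86.1 RPKM in WT and 60.4 in PD-1-/-. That with Klhl30 was 16.1% in WT (58 cells, interval 12.5 to 20.3%) and 10.9% in PD-1-/- (40 cells, interval 7.92 to 14.6%). Its mean was 17.6 RPKM in WT and 10.6 in PD-1-/-, at a log2 ratio of -0.68. The intervals of both genes overlapped between the plates, and neither reached a 2-fold difference with the pseudocount of 1 RPKM. With a pseudocount of 0.1 RPKM the log2 ratio was -1.09 for Stk11ip, past 2-fold, and -0.73 for Klhl30.

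**Figure D2:**
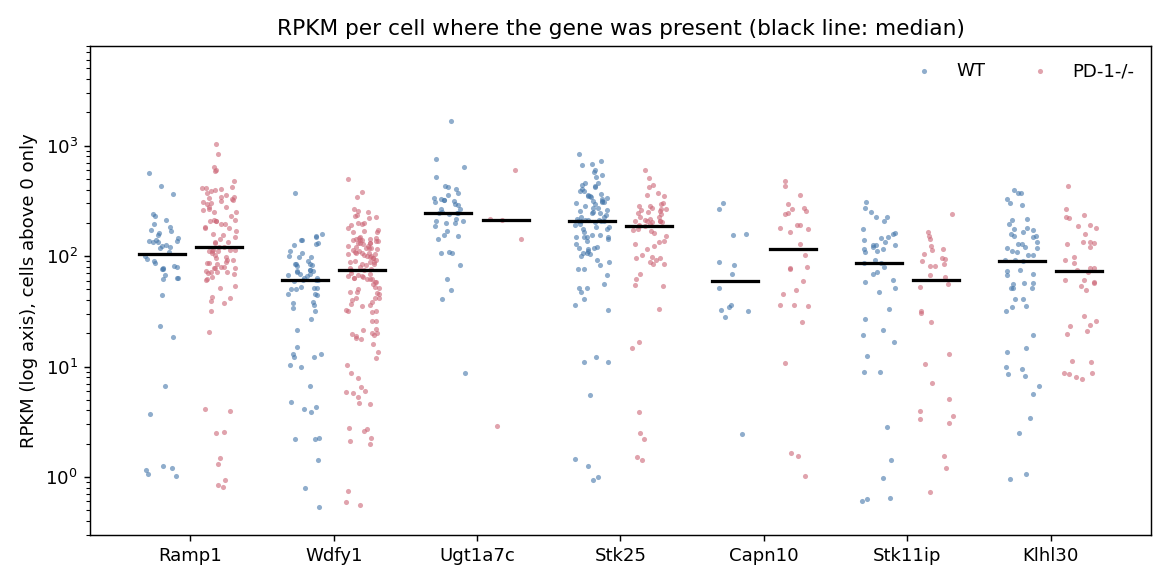
RPKM (log axis) in the cells where each gene was present, WT (blue) and PD-1-/- (red), 1 point per cell, with the median as a black line. Levels of both plates overlap for each gene, and Ugt1a7c has 42 WT and 5 PD-1-/- points.

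Shares that differed by at least 10 percentage points were uncommon over all entries. A share at least 10 points higher in PD-1-/- was found for 40 entries or 0.333%, with Ramp1 and Wdfy1 among them, and a share at least 10 points lower also for 40 or 0.333%, with Ugt1a7c among them. Within 20 Mb of Pdcd1 these 3 were the only ones of 140 genes. The share of Stk25, which fell by 9.18 points, lay just outside. As the genes were chosen on the difference in mean between the plates, nothing is read from these counts.

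Transcripts of the 7 genes rested on many reads per cell. The median of recovered reads where present was 44.5 or more, and 68.8 to 95.2% of the cells with a gene had at least 10 reads of it. With each cell thinned to 100000 recovered reads, and 27 WT and 14 PD-1-/- cells below that left out, the expected shares kept their order: 11.3 and 25.5% for Ramp1, 17.3 and 34.1% for Wdfy1, and 11.9 and 1.22% for Ugt1a7c in WT and PD-1-/-. SMART-SEQ2 reads carry no strand, so that reads of overlapping genes on the other strand cannot be told apart. Mrpl44, which overlaps Wdfy1, had shares of 16.1% in WT and 17.8% in PD-1-/- at a log2 ratio of 0.15, and Farp2, which overlaps Stk25, of 1.39 and 1.37%. Neither entry differed in share as much as the gene it overlaps. Wdfy1 and Mrpl44 were present together in 14 WT and 28 PD-1-/- cells, and Stk25 and Farp2 in 2 and 2. Dnajb3, which overlaps Ugt1a7c, was in 1 WT and 2 PD-1-/- cells, 0 of them with Ugt1a7c. Capn10 overlaps 9430060I03Rik, found in 3 WT and 8 PD-1-/- cells, of which 0 and 3 also had Capn10.

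Cells of the same plate row were compared to see whether a few rows carried the differences. Each plate has 16 rows with 17 to 24 kept cells in WT and 20 to 24 in PD-1-/-. The share was in the direction of the whole plate in 14 rows for Ramp1, 14 for Wdfy1, 14 for Stk25 and 13 for Ugt1a7c, in 11 for Capn10, and in 10 for Klhl30 and 9 for Stk11ip. By share, the first 4 genes thus differed across most of the plate, while the rows of the last 3 were divided. By mean RPKM this contrast was not seen. The mean was in the direction of the plate in 13 rows for Ramp1, 15 for Wdfy1, 14 for Stk25 and 15 for Ugt1a7c. It was so in 14 for Capn10, 12 for Klhl30 and 13 for Stk11ip. Nothing is read from these counts, as the genes were chosen on the same cells. Rows are positions on 1 plate and no replicates.

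Ramp1 was present in 4.17 to 29.4% of the cells of a WT row, with a median of 11.01%, and in 13.04 to 39.1% of those of a PD-1-/- row, with a median of 25%. The WT rows A and C, at 29.4 and 29.2%, stood above the same rows of the other plate. Wdfy1 had row medians of 17.4 and 36.9%, with 1 WT row apart: row L had it in 12 of 22 cells (54.5%), and the next WT row, J, in 6 of 24. Ugt1a7c was present in 15 of 16 WT rows and in 3 PD-1-/- rows, and 3 of the 5 PD-1-/- cells with it shared row H. The median row share was 10.6% in WT and 0% in PD-1-/-.

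**Figure D3:**
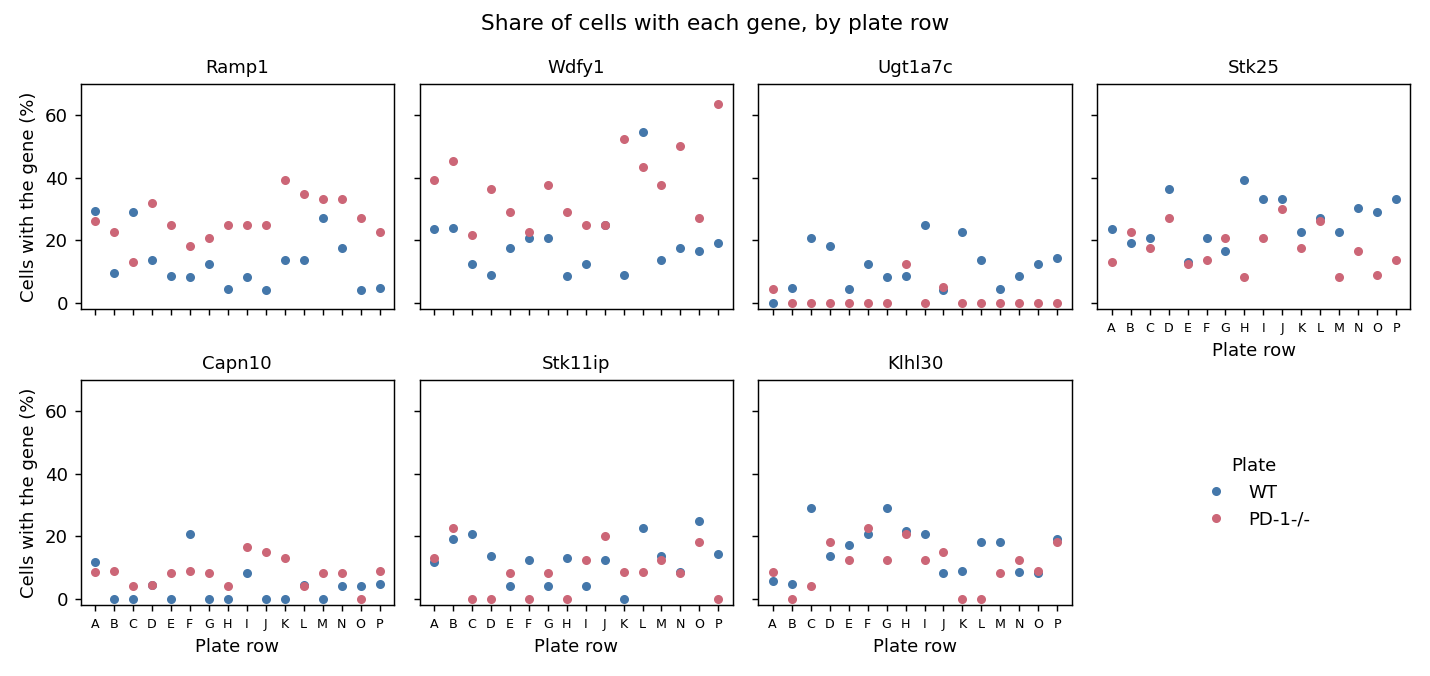
Share of kept cells with each gene (y axis, percent) in each of the 16 plate rows A to P, WT (blue) and PD-1-/- (red), 1 point per row of 17 to 24 cells. Ramp1 and Wdfy1 are higher in PD-1-/- in 14 rows each, and Ugt1a7c is at 0 in all PD-1-/- rows but 3.

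In the upper and lower block of rows taken apart (A to H and I to P), the log2 ratio was 1.14 and 2.13 for Ramp1, 1.45 and 1.38 for Wdfy1, 1.20 and 1.90 for Capn10, and -2.36 and -4.34 for Ugt1a7c. Ramp1, Wdfy1 and Capn10 are among the 0.856% of all entries that were at least 2-fold higher in both blocks, and Ugt1a7c is among the 1.29% at least 2-fold lower in both. Stk25 gave -0.87 and -0.95, Klhl30 -0.55 and -0.83, and Stk11ip -1.26 and -0.73. Each gene thus kept its direction in both blocks. The genes were chosen on the means over these same cells, so that nothing is read from this or from the counts over all entries.

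Cxcr6, a chemokine receptor of tissue-resident lymphocytes, was present in 28 WT (7.78%) and 77 PD-1-/- cells (21.04%). The differences between plates were therefore also read within Cxcr6-positive and Cxcr6-negative cells. In the Cxcr6-negative cells, 621 on both plates, all 7 genes kept their direction, with log2 ratios of 1.31 for Ramp1, 1.46 for Wdfy1, 1.68 for Capn10, -2.90 for Ugt1a7c, -0.95 for Stk25, -0.77 for Stk11ip and -0.74 for Klhl30. These cells are 621 of the 726 on which the genes were chosen, so that nothing is read from the kept direction. Whether the larger share of Cxcr6-positive cells on the PD-1-/- plate has a part in the differences was not tested. In the Cxcr6-positive cells, 28 and 77, the log2 ratio was 1.08 for Ramp1, 0.86 for Wdfy1, 0.45 for Capn10, -1.23 for Stk25 and -2.38 for Stk11ip. Klhl30 went against its direction over all cells there, with 0 of 28 WT and 6 of 77 PD-1-/- cells, and Ugt1a7c was in 0 cells of either plate.

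Ramp1 varied with Cxcr6. Of PD-1-/- cells, 33 of 77 Cxcr6-positive cells had it, 42.9% (31.6 to 54.6%), against 64 Cxcr6-negative cells, 22.1% (17.5 to 27.4%), and these intervals did not overlap. In WT the shares were 6 of 28 or 21.4% (8.30 to 40.95%) and 40 cells or 12.05% (8.75 to 16.04%), in the same direction but with overlapping intervals. Its median where present was 279.5 RPKM in Cxcr6-positive and 97.7 in Cxcr6-negative PD-1-/- cells, and 198.8 and 91.999 in WT. Cells with Cxcr6 thus had Ramp1 more often on the PD-1-/- plate, and at higher median levels on both plates. The depth of the 2 classes was near, with medians of 335783 and 312127 recovered reads in PD-1-/- and 270972 and 300075 in WT. Among PD-1-/- cells with Pdcd1, 24 of 47 (51.1%, 36.1 to 65.9%) had Ramp1, against 22.9% of those without.

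Ugt1a7c and Klhl30 were missing from the Cxcr6-positive WT cells. Of the 28 WT Cxcr6-positive cells, 0 had Ugt1a7c, which allows a share of up to 10.7%, and 12.7% of the Cxcr6-negative cells had it. Of 77 PD-1-/- Cxcr6-positive cells 0 had it, which allows up to 3.90%, and 1.73% of the Cxcr6-negative cells had it. On each plate this limit lay within the interval of the Cxcr6-negative cells (9.27 to 16.7% in WT and 0.564 to 3.99% in PD-1-/-). The exact intervals of the 2 classes overlapped for Ugt1a7c on both plates. Klhl30 was in 0 of 28 WT Cxcr6-positive cells against 58 Cxcr6-negative cells or 17.5% (13.5 to 21.99%), and the PD-1-/- plate had it in 7.79% and 11.8%. The same limit of 10.7% holds for Klhl30 in these 28 cells, and it lies below the interval of the other class. Wdfy1, Stk25, Capn10 and Stk11ip had overlapping intervals in both classes of both plates. Wdfy1 was at 33.8% and 37.4% in Cxcr6-positive and Cxcr6-negative PD-1-/- cells, and at 21.4% and 18.7% in WT. Its share was thus higher on the PD-1-/- plate in both classes. In the Cxcr6-positive cells the intervals of the plates overlapped (8.30 to 40.95% in WT and 23.4 to 45.4% in PD-1-/-).

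**Figure D4:**
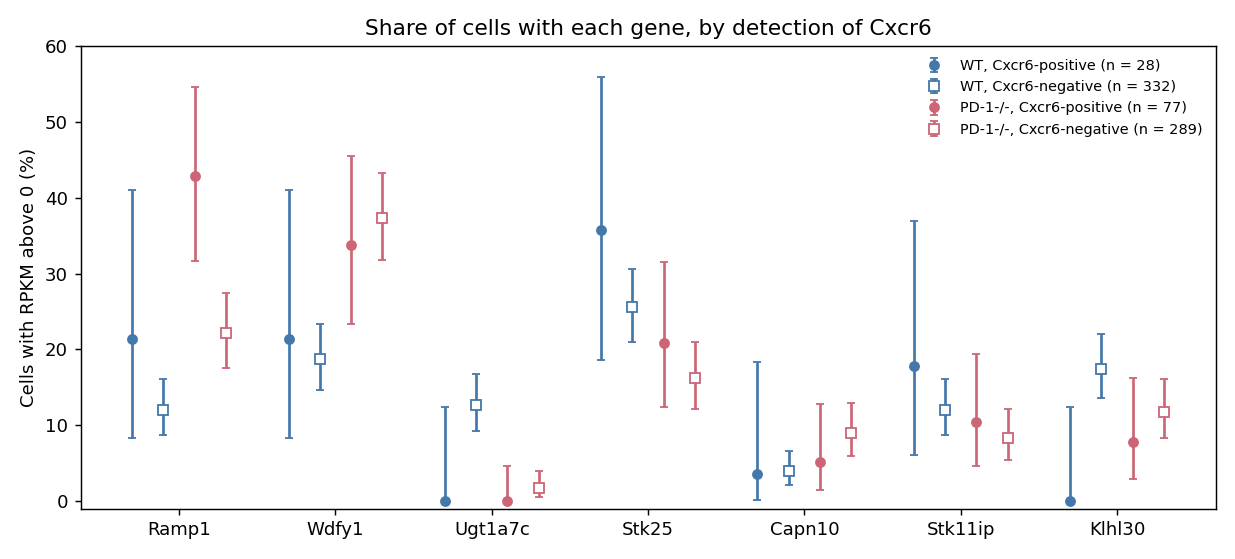
Share of cells with each gene (y axis, percent) in Cxcr6-positive (filled circles) and Cxcr6-negative (open squares) cells, WT (blue) and PD-1-/- (red), with exact binomial 95% intervals. Ramp1 reaches 42.9% in Cxcr6-positive PD-1-/- cells, and Ugt1a7c is at 0 in the Cxcr6-positive cells of both plates.

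Although the sort was for CD3- cells, 65 WT and 83 PD-1-/- cells had reads of Cd3d, Cd3e or Cd3g. In the 578 cells of both plates without them, the log2 ratio was 1.40 for Ramp1, 1.22 for Wdfy1, 1.47 for Capn10, -2.89 for Ugt1a7c, -0.67 for Stk25, -0.69 for Stk11ip and -0.65 for Klhl30. All kept their direction, with smaller sizes than over all cells. These 578 are most of the 726 cells on which the genes were chosen, so that nothing is read from the kept direction. Among them the intervals of the share of Stk25 overlapped (20.9 to 31.2% in WT and 14.99 to 24.5% in PD-1-/-). In the cells with such reads the log2 ratio was 2.69 for Ramp1, 2.51 for Wdfy1, 1.60 for Capn10, -2.26 for Stk25, -1.71 for Stk11ip and -0.68 for Klhl30. Stk25 was in 29.2% of these cells in WT and in 9.64% in PD-1-/-. Ugt1a7c was in 5 of the 65 WT cells and in 0 of the 83 PD-1-/- cells, which allows a share of up to 3.61%.

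Most cells had at most 1 of the 7 genes. No kept cell had more than 4 of them. In WT and PD-1-/-, 35.8 and 30.3% of cells had none, 34.4 and 40.4% exactly 1, and 23.1 and 19.9% exactly 2. For the pairs in which at least 5 shared cells would follow from the product of the shares, the observed number was 0.706 to 1.496 times that number over 15 pairs in WT, and 0.581 to 1.43 times over 12 pairs in PD-1-/-. It was above that number for 11 of the WT pairs and 10 of the PD-1-/- pairs. The genes most like each member over the cells were only weakly so: the mean of the within-plate Pearson correlations of log2(RPKM + 1) was 0.28 for S100a4 and 0.27 for Sema6d with Ramp1, and 0.14 to 0.21 for the closest genes of the other 6, over the cells of a plate, which share a library and its preparation. These are descriptions.

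Partner and family genes were taken from lists of 7 to 10 genes, of which those that reached a mean of 1 RPKM on either plate are counted. Of 48 genes counted, 3 or 6.25% were at least 2-fold higher in PD-1-/- and 4 or 8.33% lower, near the 4.71% and 7.34% of all entries. Calcrl, the receptor that Ramp1 needs, was present in 29 WT and 24 PD-1-/- cells at a mean of 3.71 and 4.03 RPKM, and among the 5 genes counted of its list 0 were 2-fold higher and 2 lower (Ramp3 and Calca, each in 1 WT cell and in 0 PD-1-/- cells). Of 7 TRIF pathway genes with Wdfy1, 1 was 2-fold lower, Tlr3, in 5 WT and 1 PD-1-/- cells, with 0 higher. Of 4 genes of the Ugt1a cluster and of UDP-glucose supply, 1 was lower, Ugt1a6a, in 3 WT and 0 PD-1-/- cells, with 0 higher. Of 9 genes of the STRIPAK and GCKIII list of Stk25, Strn was 2-fold higher (log2 ratio 1.06), of 6 calpain genes Capn5 (1.10), and of 8 LKB1 and AMPK genes Stradb (1.32), with 0 lower in each. Of 10 cullin 3 and kelch-like genes 0 passed 2-fold, and Klhl2, at -0.99, was the nearest. The medians of these lists lay between -0.56 and 0.14 beside -0.03 for all entries.

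The stretch around Pdcd1 was set beside the rest of the genome. Within 20 Mb, 140 genes reached a mean of 1 RPKM, of which 9 were 2-fold higher and 18 lower in PD-1-/-, 19.3% together, beside 12.1% of all entries and 11.2% of the 535 other genes of chromosome 1. With the 7 genes left out, 23 genes or 17.3% of the rest were past 2-fold. Within 10 Mb it was 23.3% of 90 genes (21.2% without the members) and within 5 Mb 24.5% of 49 (22.2%). Without the members, the median absolute log2 ratio was 0.32 within 20 Mb and 0.39 within both 10 and 5 Mb, beside 0.28 on the rest of chromosome 1 and 0.29 over all entries. Among genes whose mean reached 10 RPKM it was 0.20 within 20 Mb, members included, as over all such entries. These shares are descriptions of 1 pool per genotype, and whether the place on the chromosome has a part in the differences was not tested.

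**Figure D5:**
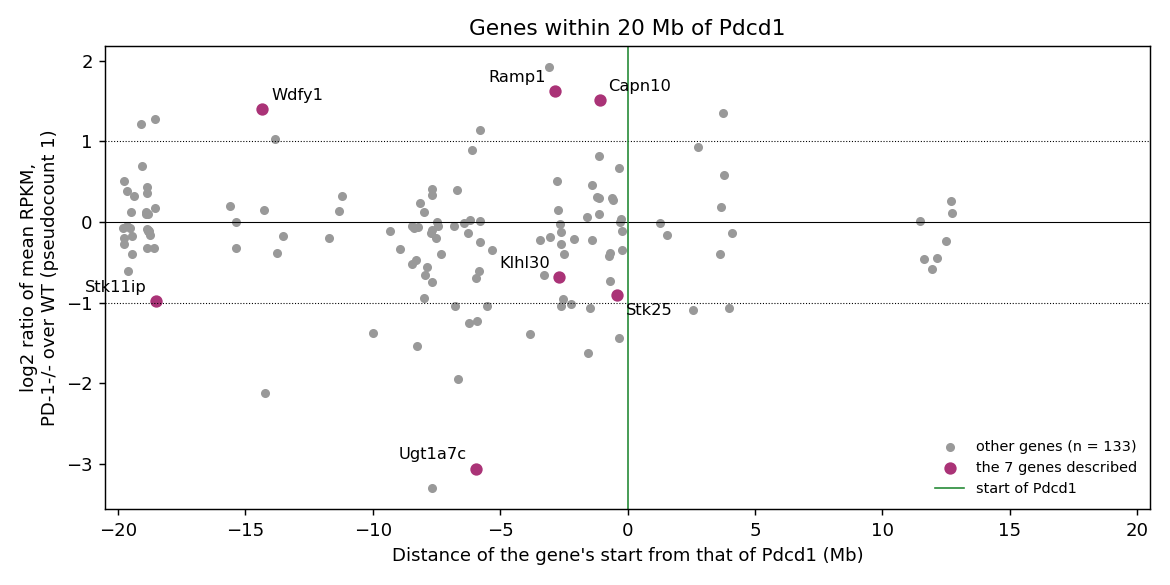
Log2 ratio of mean RPKM, PD-1-/- over WT (y axis, pseudocount of 1 RPKM) for the 140 genes within 20 Mb of Pdcd1, against the distance of their start from that of Pdcd1 (x axis, Mb); dotted lines mark 2-fold. The 7 genes described (purple) all lie before Pdcd1, with Ugt1a7c at -3.06.

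Only 17 of the 140 genes lay after Pdcd1, of which 3 were past 2-fold, beside 24 of those before it. Many of them were rare: of the 7 genes past 2-fold whose mean reached 10 RPKM, 4 were Ramp1, Wdfy1, Capn10 and Ugt1a7c. The other 3 were Gin1 (log2 ratio 1.35), at 7.78 and 7.65% of cells, A730008H23Rik (1.14), at 0.278 and 0.820%, and Mir3535 (-3.30), at 0.556 and 0.546%. Their shares of cells differed by less than 1 point between the plates.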

How the data were processed

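The authors sorted single NK cells, made SMART-SEQ2 libraries and deposited RPKM per gene entry for 768 wells. The submitters' processing notes name TopHat and Cufflinks, and mm9 and mm10 with no role; versions are not given in the sources used here. RPKM was used as deposited. Wells with 1000 to 3500 genes above 0, counting genes above 0 in at least 3 wells, were kept, 726 in all. The members and gene lists were chosen with earlier results of these data known. Each genotype is 1 pool on 1 plate, so that no test was made.

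Ratios are log2((PD-1-/- mean + 1)/(WT mean + 1)) over entries whose mean reached 1 RPKM on either plate, of which some rest on 1 or 2 cells. Whole reads were recovered from RPKM steps (relative tolerance 1e-05 per read, at most 0.01 off) and served for depth and thinning; values that did not come out whole were not counted, so that depths are lower bounds. The recovery was tested on simulated data. A limit for a share of 0 assumes 3 cells. Positions and promoters are those of RefSeq on GRCm38.p6, matched by symbol, with strands and overlaps of GENCODE vM21; Wdfy1 and Klhl30 had no promoter entry. Named genes are the 7 members, Pdcd1, Cxcr6, the partner lists, genes near Pdcd1 past 2-fold whose mean reached 10 RPKM, and the 2 genes most like each member. Python 3.11.15, numpy 2.4.6, pandas 2.3.3, scipy 1.17.1 and matplotlib 3.10.9 were used. Alternatives changed the pseudocount, the cells, rows and wells used, the scaling, the limit for presence and the window. Recovered reads scaled to depth and Cxcr6-negative cells alone were added after seeing the data.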

Additional observations from a re-analysis of the deposited data

How the results depend on the processing

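Among alternatives to the ratios and shares of the 7 genes, 78 of 84 ratios moved by less than 1.5-fold on the linear scale and no direction reversed. Smaller moves also crossed the 2-fold limit. The log2 ratio of Wdfy1 was 0.97 with a pseudocount of 10 RPKM. That of Stk11ip was, among others, -1.09 with 0.1 RPKM, -1.07 with wells of 1500 to 3000 genes and -1.24 without rows A and B. Of 63 differences in share, 5 moved by more than 1.5-fold: Ramp1 to 8.78 points (from 13.7) and Capn10 to 2.57 (from 4.31) in rows A to H, Stk11ip from -3.76 to -5.84 there and to -1.65 in rows I to P, and Klhl30 to -3.13 over all wells (from -5.18). The log2 ratio of Ugt1a7c was -1.74 with a pseudocount of 10 RPKM, -3.69 with wells of 1500 to 3000 genes, -2.36 in rows A to H, -4.34 in rows I to P and -4.26 without the 3 highest cells of each genotype, and that of Capn10 was 0.71 with a pseudocount of 10 RPKM. The share of genes past 2-fold within 20 Mb of Pdcd1 was 8.64% at a mean of at least 10 RPKM (2.71% of all entries), 11.04% with no minimum beyond 3 cells (6.56%), and 2.14% with a pseudocount of 10 RPKM (0.374%). Without the 7 genes these were 4.05%, 8.97% and 0.752%, the last of them 1 gene. No paired analysis was possible because each genotype is 1 pool and no test was made. Thinning moved the rare genes little, with expected shares at 100000 reads of 1.22% for Ugt1a7c (1.37% unthinned) and 7.95% for Capn10 (8.20%) in PD-1-/- cells. A split of the cells at their median depth moved 2 genes more. The difference in share of Capn10 was 1.59 points above the median and 7.20 at or below it. For Stk11ip it was -6.50 and -0.83. Each of the 7 genes kept its direction in both classes of depth.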
